A study of Mus musculus with 6 samples.

Results

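The genes described here make and divide the chromosomes of a growing cell: 40 genes of DNA replication, the cyclins and their kinases, the E2F factors and mitosis, out of 21887 protein-coding genes. They were listed by name and function, with no threshold on a measured value but with earlier results of these data known. Of the 40, 12 act in DNA replication, 12 are cyclins or cyclin-dependent kinases (CDKs), 6 are E2F transcription factors, 8 act in mitosis, and Cdc25a and Myc act at entry into the cycle. Chromatin accessibility was measured by ATAC-seq, which reads out where a transposase can insert sequencing adapters, mostly in DNA free of nucleosomes. The material was a line of mouse atrioventricular cushion mesenchymal cells, from the embryonic tissue that gives rise to heart valves and septa. All 6 libraries shared the H-2Kb-tsA58 transgene, passage 6, 37 °C and 10% serum, and each was made from 54000 cells. Cells of 3 libraries were kept in 5.5 mM glucose (normal glucose) and cells of the other 3 in 25 mM glucose (high glucose), for 48 h. H-2Kb-tsA58 is known as a transgene in which an interferon-responsive promoter drives a temperature-sensitive SV40 large T antigen, a protein that binds p53 and the Rb family. Both groups are thus an immortalised line, in which neither cycling nor T antigen was measured, and nothing in the labels says that replicates were separate cultures.

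As background, replication starts where the origin recognition complex, with Cdc6 and Cdt1, loads the ring of Mcm2 to Mcm7 that later unwinds DNA. Cyclins switch on CDKs in turn: D cyclins with Cdk4 and Cdk6 and E cyclins with Cdk2 drive the cell into S phase, and A and B cyclins with Cdk1 drive it into mitosis. CDKs release E2F factors from Rb, and E2F then acts on replication genes through a T- and GC-rich promoter element. Mitotic genes carry a different element, the cell cycle genes homology region (CHR), often with CCAAT boxes that bind NF-Y. They are held down in part of the cycle by the DREAM complex and turned on in another by B-Myb and FoxM1.

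Promoter sequences are shown first because their motifs differed between the groups that the peaks then describe. Each is the RefSeq promoter window of GRCm38.p6 (the coordinates of mm10), 250 bases before to 50 bases after an annotated start, read 5′ to 3′ on the strand of the gene. Capitals mark every match to 4 motifs, on either strand. The E2F motif was searched as TTTCCCGC, TTTGGCGC, TTTCGCGC or TTTGCCGC. The CHR motif was searched as TTTGAA or TTCGAA. The others were the CCAAT box and the E-box known to bind Myc and Max, searched as CACGTG. In the member windows 1 match overlapped a match to a different motif. The first 5 belong to the member of each group with the highest ranked peak, and show a replication gene, a cyclin, an E2F, a mitotic kinase and a phosphatase of cycle entry.
Mcm5, chr8:75109259-75109558, plus strand: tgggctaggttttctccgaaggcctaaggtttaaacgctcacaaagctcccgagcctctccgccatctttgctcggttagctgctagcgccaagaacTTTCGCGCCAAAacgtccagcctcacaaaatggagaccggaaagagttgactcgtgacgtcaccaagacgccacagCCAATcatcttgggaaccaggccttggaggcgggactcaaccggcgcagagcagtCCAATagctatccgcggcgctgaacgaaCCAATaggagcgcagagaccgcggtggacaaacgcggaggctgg
Ccnb1, chr13:100786437-100786736, minus strand: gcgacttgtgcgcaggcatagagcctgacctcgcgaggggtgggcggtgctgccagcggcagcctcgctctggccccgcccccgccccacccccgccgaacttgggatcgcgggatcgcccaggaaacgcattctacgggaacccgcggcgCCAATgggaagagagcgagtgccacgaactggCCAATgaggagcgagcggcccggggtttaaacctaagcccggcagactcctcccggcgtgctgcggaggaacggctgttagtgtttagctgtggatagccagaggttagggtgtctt
E2f1, chr2:154569377-154569676, minus strand: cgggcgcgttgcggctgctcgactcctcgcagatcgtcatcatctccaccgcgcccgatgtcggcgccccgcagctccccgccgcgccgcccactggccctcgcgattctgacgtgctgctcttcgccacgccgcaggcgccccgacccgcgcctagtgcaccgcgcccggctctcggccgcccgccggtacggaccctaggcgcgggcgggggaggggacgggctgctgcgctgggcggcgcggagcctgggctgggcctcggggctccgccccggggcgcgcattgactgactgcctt
Aurka, chr2:172370521-172370820, minus strand: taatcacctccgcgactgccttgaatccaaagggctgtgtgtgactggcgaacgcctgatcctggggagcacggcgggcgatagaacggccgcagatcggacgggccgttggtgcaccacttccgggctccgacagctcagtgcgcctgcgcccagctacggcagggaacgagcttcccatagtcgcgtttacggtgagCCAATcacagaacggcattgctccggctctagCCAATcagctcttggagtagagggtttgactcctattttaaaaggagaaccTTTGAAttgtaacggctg
Cdc25a, chr9:109875329-109875628, plus strand: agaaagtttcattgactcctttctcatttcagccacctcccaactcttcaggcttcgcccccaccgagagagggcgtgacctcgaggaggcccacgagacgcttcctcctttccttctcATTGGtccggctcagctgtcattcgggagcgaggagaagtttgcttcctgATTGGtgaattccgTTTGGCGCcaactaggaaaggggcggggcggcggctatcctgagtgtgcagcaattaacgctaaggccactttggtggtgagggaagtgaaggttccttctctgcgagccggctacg

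In Mcm5 the long run of capitals is a pair of overlapping E2F matches on opposite strands, centred 150 and 146 bp before the start, and 3 CCAAT boxes lie between them and the first bases of the gene. Ccnb1, which encodes cyclin B1, held 2 CCAAT boxes, 97 and 65 bp before the start, and neither an E2F nor a CHR match. Aurka, the kinase of spindle poles, held 2 CCAAT boxes before the start and a CHR match 34 bp after it. Cdc25a, a phosphatase that activates CDKs, held 1 E2F match and 2 CCAAT boxes. E2f1 held no match. Its window lies around a start 466 bp inside the gene's annotated end, whereas the peak at E2f1 covers that end, so these letters are not those under the peak.

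The other 4 were chosen after their values were seen. Cdk1 holds 3 kinds of match in 1 window, Top2a has the most CHR and CCAAT matches shown but few peaks, and Orc1 and E2f2 have their constant peak at a start inside the gene.
Cdk1, chr10:69352863-69353162, minus strand: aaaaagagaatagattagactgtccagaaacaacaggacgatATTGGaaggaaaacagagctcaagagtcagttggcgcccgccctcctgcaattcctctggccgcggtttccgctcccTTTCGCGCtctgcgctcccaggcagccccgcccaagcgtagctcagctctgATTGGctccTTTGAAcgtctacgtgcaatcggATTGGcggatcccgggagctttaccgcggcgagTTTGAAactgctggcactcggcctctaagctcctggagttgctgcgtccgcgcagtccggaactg
Top2a, chr11:99024140-99024439, minus strand: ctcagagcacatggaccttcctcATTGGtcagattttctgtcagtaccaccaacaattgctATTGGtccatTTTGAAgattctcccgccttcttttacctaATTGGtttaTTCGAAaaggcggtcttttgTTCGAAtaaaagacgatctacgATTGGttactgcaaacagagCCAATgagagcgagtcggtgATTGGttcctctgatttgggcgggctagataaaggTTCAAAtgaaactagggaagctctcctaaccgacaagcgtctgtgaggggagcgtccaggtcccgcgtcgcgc
Orc1, chr4:108579204-108579503, plus strand: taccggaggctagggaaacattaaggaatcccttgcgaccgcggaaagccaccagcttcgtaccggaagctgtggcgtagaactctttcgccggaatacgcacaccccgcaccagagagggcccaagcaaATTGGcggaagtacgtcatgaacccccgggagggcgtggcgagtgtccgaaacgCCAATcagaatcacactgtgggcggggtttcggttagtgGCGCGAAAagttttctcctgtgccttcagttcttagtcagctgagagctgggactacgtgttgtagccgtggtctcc
E2f2, chr4:136180532-136180831, plus strand: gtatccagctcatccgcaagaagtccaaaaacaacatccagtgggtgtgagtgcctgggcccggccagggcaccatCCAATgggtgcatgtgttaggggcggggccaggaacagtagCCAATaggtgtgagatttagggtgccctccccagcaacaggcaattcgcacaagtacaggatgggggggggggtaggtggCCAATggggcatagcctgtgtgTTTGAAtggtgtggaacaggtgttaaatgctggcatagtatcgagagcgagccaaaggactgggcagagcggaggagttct

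Cdk1, the kinase that drives mitosis, held 1 E2F match, 2 CHR matches and 3 CCAAT boxes. Top2a, the topoisomerase that untangles sister chromosomes, held 4 CHR matches and 6 CCAAT boxes. Orc1, a subunit of the origin recognition complex, held 1 E2F match on the minus strand, 24 bp before the start, and 2 CCAAT boxes. The window at the inner start of E2f2 held 1 CHR match and 3 CCAAT boxes.

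Replication and mitotic genes differed in their motifs. Of the 40 members 32 had 1 or more RefSeq windows, 36 windows in all, and Mcm4, Ccna2, Ccnd1, Ccnd2, Ccne2, E2f4, Aurkb and Myc had none. An E2F match lay in 7 of 12 replication windows (58.3%), in 2 of 9 of the cyclins and CDKs, in 3 of 7 of the E2F genes and in 0 of 7 mitotic windows, against 2.85% of the 21263 windows of all protein-coding genes. A CHR match lay in 7 of 7 mitotic windows and in 2 of 12 replication windows, Mcm2 and Mcm7, against 17.6% of all windows. It also lay in 3 of 7 windows of the E2F genes and in 2 of 9 of the cyclins and CDKs. CCAAT boxes were common to both, in 10 of 12 replication windows and 7 of 7 mitotic windows, against 38.2% of all. Among genes with a start peak in all 5 libraries compared below, the shares over all protein-coding windows were 4.5% for E2F, 12.7% for CHR and 40.8% for CCAAT. The E-box was found in 3 of the 36 windows (8.33%, against 7.84% of all), those of Cdk6, Cdk4, where it occurred 4 times, and the inner start of E2f3. A match is a string of letters and not a measured binding site.

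Peak lists of 22156 to 40350 peaks were compared for 5 libraries, normal-glucose replicates 1 and 3 and high-glucose replicates 1, 2 and 3. Normal-glucose replicate 2 listed 66 peaks, none of them at a member, and fell under the minimum of 1000 peaks set for a comparison. The longest list was that of normal-glucose replicate 3. The sequencing depth is unknown, since the lists carry no reads, and a gene without a peak is one not detected as open in that list, not one shown to be closed. With 2 libraries against 3 the smallest two-sided p of an exact permutation test is 0.2, so no difference between the conditions was tested. Of 8 cushion mesenchyme markers 6 showed a peak near a gene end in all 5 libraries and the other 2, Twist1 and Postn, in 4 of them. None of 4 endothelial, 4 heart muscle, 4 blood and 4 epithelial markers did so in all 5. Among them Kdr alone had such a peak in any library, in 4 of the 5.

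Most of the 40 genes were open in every list, among them 10 of the 12 replication genes but 4 of the 8 mitotic genes. Further replication and mitotic genes, given below, stood the other way, at 22 of 33 and 20 of 24. A gene was called open where a peak overlapped the 1 kb either side of its start or its end (a gene-end peak). By that measure 29 of 40 members (72.5%) were open in all 5 libraries, against 35.7% of all protein-coding genes. In all 5 were 10 of 12 replication genes, 8 of 12 cyclins and CDKs, 5 of 6 E2F genes, 4 of 8 mitotic genes, and both Cdc25a and Myc. In some but not all libraries were 8 of 40 members, against 3566 of the 21887 genes. The other 3, Orc1, Ccnd1 and Ccnd3, had no gene-end peak in any, against 48.0% of all genes. In single libraries the open members numbered 31, 36, 33, 36 and 32 in the order of libraries given above, against 42.4%, 49.8%, 41.6%, 44.5% and 43.0% of all genes. Of the 32 members with an annotated start, 27 had a peak within 1 kb of it in all 5 libraries, against 38.6% of the genes so measured. Counting peaks anywhere inside the gene as well, 32 of 40 were open in all 5, against 44.6%.

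**Figure D1:**
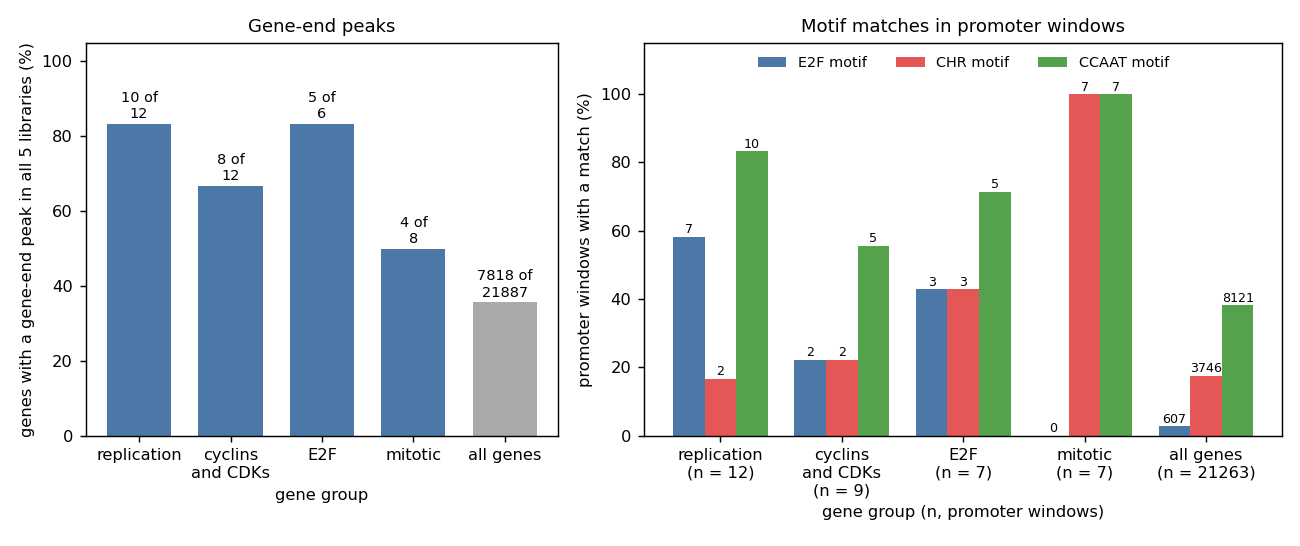
The left panel plots the percentage of genes of each group with a gene-end peak in all 5 libraries, with the number of genes above each bar. The right panel plots the percentage of promoter windows with a match to the E2F, CHR or CCAAT motif, with the number of windows above each bar. E2F matches stand in 7 of 12 replication and 0 of 7 mitotic windows, CHR matches in 2 of 12 and 7 of 7, and grey marks all genes in the left panel. Cdc25a and Myc are not drawn.

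Each peak was placed by the authors' −log10 p within its own list, as the percentage of that list's peaks at or below it, so the strongest peak of a list stands at 100. Values below follow the order normal-glucose replicates 1 and 3, then high-glucose replicates 1, 2 and 3. These percentiles rank peaks within 1 list, and between lists of different length they show no change. These are bulk libraries, so a site weakly open in all cells and one open in a share of them, such as those of 1 cycle phase, cannot be told apart. The median of the weakest percentile over the 29 members open in all 5 libraries was 75.3, against 67.1 over all genes so open. By group that median was 78.8 for replication genes, 90.7 for cyclins and CDKs, 79.7 for E2F genes and 55.6 for mitotic genes.

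**Figure D2:**
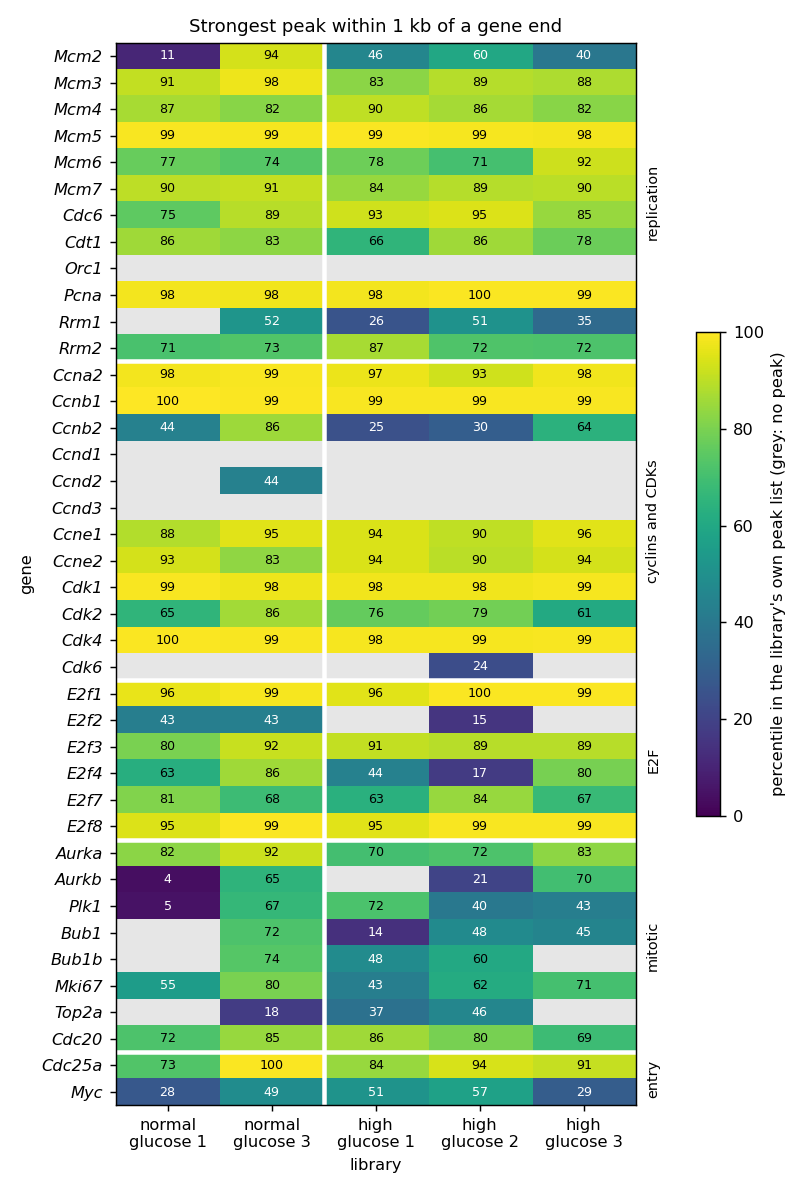
Each cell gives the percentile of the strongest gene-end peak of a gene (row) in the peak list of a library (column), grey where there was none. Rows are grouped by role, and white lines separate the groups and the 2 conditions. Mcm5, Pcna, Ccnb1, Cdk1 and Cdk4 are near the top of every list, while 4 of the 8 mitotic genes lack a peak in at least 1 library.

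Among replication genes, all 6 subunits of the Mcm helicase were open in every library. The highest ranked was Mcm5, with peaks at percentiles 99.1, 98.8, 99.4, 98.6 and 98.4 of the 5 lists. The authors' fold enrichment at that summit was 19.9, 20.8, 21.8, 22.7 and 20.3. Its peak lay over the start shown above, with summits 69 to 90 bp before it, and covered all 3 CCAAT boxes in all 5 libraries and the E2F pair in 4. Mcm7 stood at 90.1, 91.2, 84.5, 88.7 and 89.7, and Mcm3 at 91.0, 97.6, 82.8, 88.7 and 87.6. Mcm4 and Mcm6 stood between 70.7 and 92.3 in every list. Mcm2 was the exception in the ring, at 10.6, 93.6, 45.9, 59.8 and 39.6. It was near the bottom of the list in normal-glucose replicate 1 and high in normal-glucose replicate 3, with the high-glucose libraries between them.

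Pcna, the sliding clamp that holds the polymerases on DNA, ranked next to Mcm5, at 98.2, 97.9, 98.2, 99.5 and 99.3, and a further peak inside the gene stood at 74.2 to 88.3. The loading factors Cdc6 and Cdt1 were open in every library, Cdc6 at 75.3, 89.3, 92.7, 94.8 and 84.6 and Cdt1 between 65.5 and 85.8. Rrm2, the regulated subunit of ribonucleotide reductase, which supplies deoxynucleotides, stood at 71.3, 72.7, 87.1, 72.4 and 72.2. Rrm1, the other subunit of that enzyme, had no gene-end peak in normal-glucose replicate 1 and stood at 52.0, 25.8, 51.0 and 34.6 in the other libraries. In normal-glucose replicate 1 the nearest peak to Rrm1 lay 9.62 kb away.

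Orc1 had no peak within 1 kb of either annotated end, yet a peak in all 5 libraries inside the gene. It lay at chromosome 4, 108579205 to 108579685, overlapping the Orc1 window shown above, and stood at 68.3, 77.5, 80.0, 57.8 and 76.9. RefSeq places the start of that window 3.75 kb inside the span of the gene, and the summits lay 138 to 192 bp before it. All 5 libraries thus had a peak at an annotated Orc1 start that the gene ends missed.

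Among cyclins and CDKs, Ccnb1, Cdk4 and Cdk1 ranked near the top of every list, while the D-type cyclins had few gene-end peaks. Ccnb1 stood at 99.7, 99.4, 99.2, 99.0 and 98.9, with a fold enrichment of 24.3, 24.1, 23.7, 25.7 and 22.1. Cdk4, the G1 partner of the D cyclins, stood at 99.5, 99.2, 98.5, 98.7 and 98.9, and 3 of its 4 E-boxes lay under a peak in all 5 libraries. Cdk1 stood at 99.0, 97.6, 98.0, 97.7 and 98.7. All 5 lists therefore held these 3 genes among their strongest peaks. Ccna2, which encodes cyclin A2, stood between 92.8 and 99.2, and the E cyclins Ccne1 and Ccne2 between 83.3 and 95.5. Cdk2, their partner, stood between 60.8 and 86.0. Ccnb2, which encodes cyclin B2, ranked far below Ccnb1, at 43.8, 85.5, 24.8, 29.9 and 64.1, and was lowest in high-glucose replicates 1 and 2.

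The D cyclins relay growth signals to Cdk4 and Cdk6, and the gene ends of none of the 3 were open throughout. Ccnd1 had no peak inside the gene or within 1 kb of it in any library, and the nearest lay 1.7 to 3.59 kb beyond its right end (chromosome 7, 144939831). Ccnd2 had a gene-end peak in normal-glucose replicate 3 alone, at 43.8, and a region inside the gene at 11.8 and 77.6 in normal-glucose replicates 1 and 3 and at 40.8 in high-glucose replicate 2. Cdk6 had a gene-end peak in high-glucose replicate 2 alone, at 23.5. Its other 5 regions lay inside the gene, in 1 to 3 libraries each.

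Ccnd3 was open inside the gene. It held 3 regions present in all 5 libraries, none of them within 1 kb of an annotated end. The region at chromosome 17, 47593243 to 47593513, lay at an annotated start 88.4 kb into the gene, with summits 17 to 146 bp before it, and stood at 68.5, 81.2, 85.5, 88.0 and 69.9. A region at 47511133 to 47511403, 6082 bp from the left end, stood at 82.7, 87.6, 93.8, 94.3 and 82.2. The remaining one, at 47595827 to 47596079, stood at 61.9, 70.6, 18.8, 30.2 and 43.9. Ccnd3 also held the sole member region found in both libraries of normal glucose and in none of high glucose, at 47521700 to 47521844. It stood at 15.4 and 40.1, and 3.73% of all 49048 regions had that pattern.

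**Figure D3:**
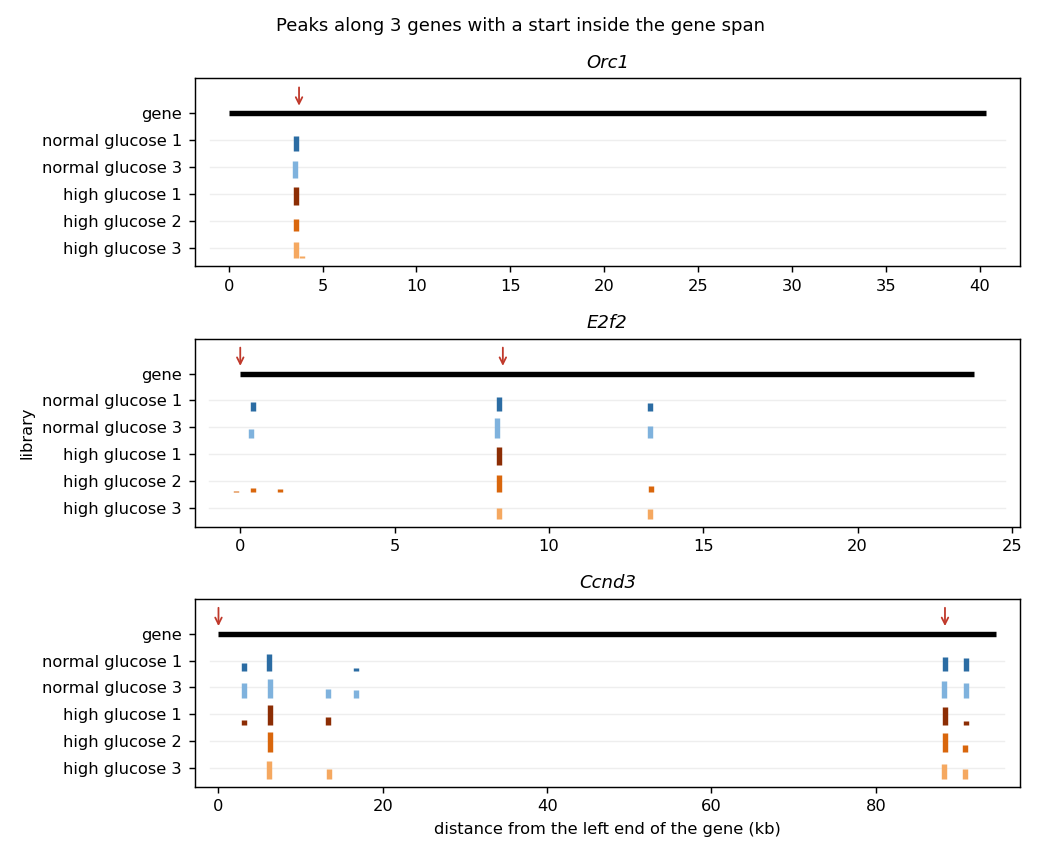
Peaks along Orc1, E2f2 and Ccnd3 are drawn by the distance of their summits from the left end of the gene in kb, 1 row per library, with bar height in proportion to the percentile in that library's list. The black bar is the annotated gene and red arrows are annotated starts. In each gene a peak stands in all 5 libraries at a start inside the span, 3.75 kb into Orc1, 8.51 kb into E2f2 and 88.4 kb into Ccnd3.

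Of the E2F genes, 5 of 6 were open at a gene end in all 5 libraries. E2f1, an activator that promotes S phase, stood at 96.5, 98.8, 95.7, 99.6 and 99.3. E2f8, a repressor of E2F targets, stood at 94.7, 99.3, 95.4, 99.0 and 98.9. E2f3, another activator, stood at 79.7, 91.5, 90.7, 89.1 and 89.3, with a further region at its inner start at 48.4 to 76.7. E2f7, the partner repressor of E2f8, stood between 63.4 and 84.5. E2f4, which acts with the DREAM complex, was the lowest, at 62.6, 85.7, 44.1, 17.2 and 79.6, and its spread within high glucose covered most of that range.

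E2f2 was the sole E2F gene with a gene-end peak in only some libraries, at 42.8 and 43.2 in normal-glucose replicates 1 and 3 and at 15.3 in high-glucose replicate 2. Its inner start, shown above, had a peak in all 5 libraries, at chromosome 4, 136180526 to 136180740, with percentiles of 67.2, 94.2, 83.5, 79.3 and 46.8. The summits lay 116 to 175 bp before that start, and the peaks covered the first 2 of the 3 CCAAT boxes in all 5 libraries. The CHR match nearer the start was under no peak.

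The mitotic genes, with the lowest median rank of the 4 larger groups, included 4 open in every library. Aurka stood at 82.5, 91.9, 70.3, 72.0 and 83.0. Cdc20, which activates the anaphase-promoting complex, stood at 72.0, 84.6, 85.6, 79.6 and 68.7. Mki67, which encodes the proliferation marker Ki-67, stood at 55.4, 79.8, 42.6, 61.7 and 70.6. Plk1, the polo kinase, was open in every library but stood at 4.79, 66.7, 71.7, 39.9 and 42.6, near the bottom of the list in normal-glucose replicate 1.

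The other 4 mitotic genes lacked a gene-end peak in at least 1 library. Bub1, a kinase of the spindle checkpoint, had none in normal-glucose replicate 1 and stood at 72.2, 14.0, 47.7 and 45.0 in the others. The 14.0 of high-glucose replicate 1 came from a separate region with its summit 337 bp after the start, so that no region of Bub1 was in more than 3 libraries. Bub1 and Rrm1 were thus missing from normal-glucose replicate 1 alone, a pattern of 1.59% of all genes. Aurkb, the kinase of the chromosomal passenger complex, was missing from high-glucose replicate 1 alone, a pattern of 1.91% of all genes, and stood at 3.53, 65.0, 20.6 and 69.6 in the others. The Aurkb peaks came from a pair of separate regions, 1 in normal-glucose replicate 3 and high-glucose replicate 3 and the other in normal-glucose replicate 1 and high-glucose replicate 2. Bub1b, which encodes the checkpoint protein BubR1, was open in normal-glucose replicate 3 at 73.6 and in high-glucose replicates 1 and 2 at 48.3 and 60.2.

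Top2a was open in the same 3 libraries as Bub1b, at 17.6, 37.2 and 45.9. Its peaks did not coincide: the strongest had summits 131 bp after the start in normal-glucose replicate 3, and 46 and 261 bp before it in high-glucose replicates 1 and 2. None of its 4 CHR matches was under a peak in more than 1 library, and 1 of the 6 CCAAT boxes was under a peak in 2. Top2a thus combined the most matches of the windows shown with no region in all 5 lists. Over all 36 member windows, 32 of 58 CCAAT boxes, 5 of 21 CHR matches, 5 of 18 E2F matches and 3 of 6 E-boxes lay under a peak in all 5 libraries. The windows include those of Top2a, Bub1 and Bub1b, genes with CHR matches but no region in all 5 libraries. The same shares were not counted over all protein-coding windows, so these counts do not compare the motifs.

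At the entry to the cycle, Cdc25a stood at 72.9, 99.5, 84.4, 94.0 and 91.4. Myc, a transcription factor of growth genes, stood at 27.6, 48.6, 51.2, 57.4 and 29.3. These values come from a pair of neighbouring regions on chromosome 15. The region at 61985178 to 61985281 gave those of normal-glucose replicate 3 (48.6) and high-glucose replicate 1 (51.2). The region at 61985421 to 61985584 gave the other 3, and stood at 39.9 in normal-glucose replicate 3. A region farther inside Myc, at 61987165 to 61987362, stood at 71.7 and 52.3 in normal-glucose replicates 1 and 3 and at 66.8 in high-glucose replicate 2, above the gene-end peaks of those libraries. It was not listed in high-glucose replicates 1 and 3.

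Summits stood just before the start in most members. The strongest start peak of the 27 members with one in all 5 libraries had its median summit before the start in 24 and after it in 3, and within 200 bp of it in 23. In 14 members the 5 summits spanned at most 50 bp. Summit positions were not counted over all genes, so none of these counts shows a trait particular to the members. At Cdk1 they spanned 6 bp, 32 to 38 bp before the start, between the CHR match 13 bp before the start and the CCAAT box 46 bp before it. At Pcna they lay 135 to 153 bp before the start. The farthest were Cdc6, 382 to 427 bp before its entry's start, E2f1, 538 to 548 bp before, and E2f8, 478 to 507 bp after. Summits of Plk1, Mki67 and E2f7 were spread over 159, 171 and 217 bp.

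**Figure D4:**
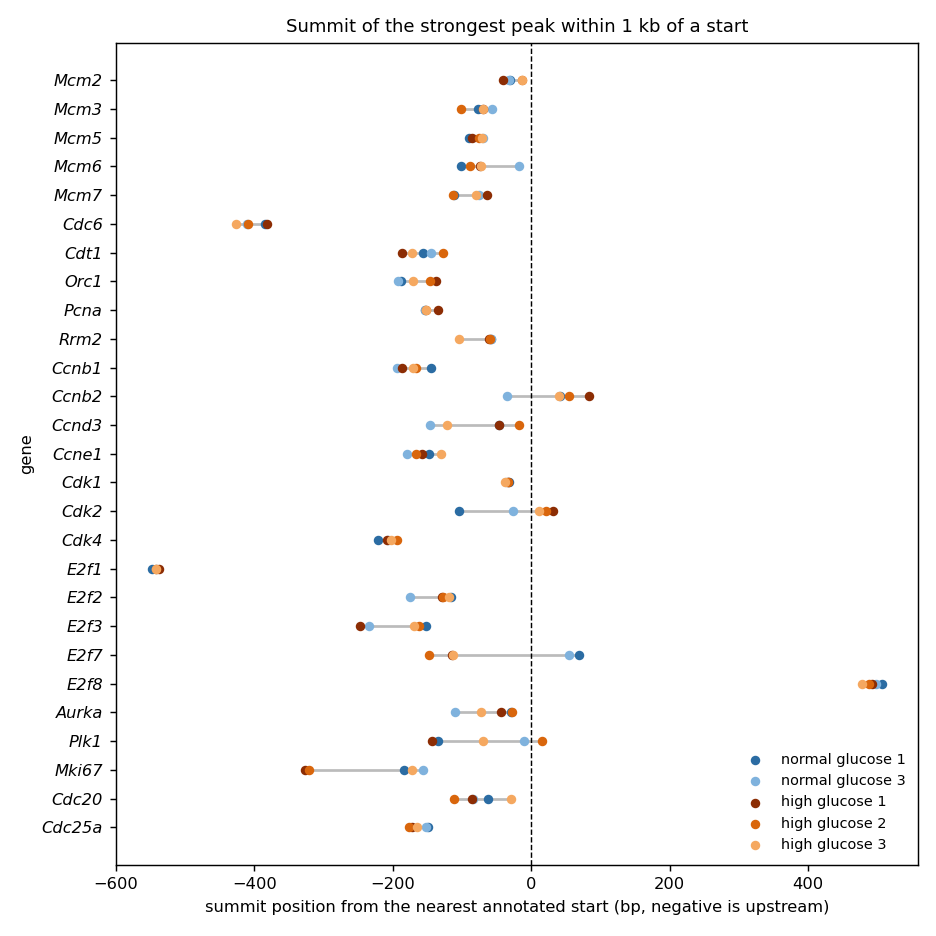
For each of the 27 members with a start peak in all 5 libraries, points give the summit of the strongest such peak relative to the nearest annotated start, in bp, with negative values upstream. Colours are libraries, blue for normal and brown to orange for high glucose, and grey lines join the lowest and highest summit. Most points lie in the 200 bp before the start, those of Cdk1 and E2f1 nearly coincide, and those of E2f7 and Mki67 are spread.

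A peak at a gene end can belong to a neighbour. Another protein-coding gene lay within 1 kb of an end in 12 of 40 members (30.0%, against 24.8% of all genes). The right end of Mcm4 lay 44 bp from Prkdc, a DNA repair kinase gene, and that of Ccna2 104 bp from Bbs7. Neither member had an annotated start. The value of Mcm4 in normal-glucose replicate 3, 82.3, came from a region beyond that end, at chromosome 16, 15637762 to 15638026. Those of the other libraries came from the region at 15637297 to 15637726. The peaks of Mcm4 thus cannot be told apart from those of Prkdc. On the start side, Pcna, Aurka and Mcm7 lay 158, 241 and 90 bp from Cds2, Cstf1 and Ap4m1, so their peaks cannot be told apart from those of the neighbours. Of the 12 members with such a neighbour 10 were open in all 5 libraries, and of the 28 without one 19 were (67.9%). Over all genes these shares were 57.7% and 28.5%.

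No member's gene ends were open in every library of 1 condition and in none of the other. No member was open in both libraries of normal glucose and in none of high glucose, a pattern of 0.699% of all genes. The opposite pattern, open in all 3 libraries of high glucose alone, was met by 0.0640% of all genes and by no member. Without normal-glucose replicate 3, Rrm1 and Bub1 took the high-glucose pattern, as did 1.65% of all genes. Without normal-glucose replicate 1, Ccnd2 took the normal-glucose pattern, as did 3.27% of all genes. Without high-glucose replicate 2, E2f2 took it, as did 1.46% of all genes. With the full lists, each of these patterns was met only when the library named was left out. Those of Rrm1, Bub1 and Ccnd2 then rest on 1 normal-glucose library. The members held 84 regions, of which 37 were in all 5 libraries and 23 in a single one, 13 of those in normal-glucose replicate 3. Of all 49048 regions, near a gene or not, 12321 were in all 5 libraries. The share in a single library was not counted over all regions. No member region was in all high-glucose and no normal-glucose libraries, a pattern of 0.167% of all regions.

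Ranks could be set side by side after every list was shortened to its 22149 strongest peaks, the length of the shortest. There, 28 members were open in every library, and the conditions overlapped in 21 of them. Mcm3 and Ccna2 ranked higher in both normal-glucose libraries than in any high-glucose one (2 of 28, against 9.55% of all genes). Cdc6, Pcna, Rrm2, E2f3 and Myc ranked higher in all high-glucose libraries (5 of 28, against 14.7% of all genes). The median difference, high minus normal glucose, was 1.17 percentile points over the 28 members and 0.953 over 7435 genes. Both shares of members are close to those of all genes.

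For Myc the equal-length percentiles were 20.8 and 6.42 in normal glucose and 51.2, 51.9 and 27.9 in high glucose. The mean percentiles were 13.6 and 43.7, a difference of 30.1 points. With windows of 2.5 kb, which take in the region farther inside the gene, the conditions overlapped at Myc, and its gene-end values mix the pair of regions named above. Rrm2 stood at 68.6 and 50.3 against 87.1, 68.8 and 71.7, and its nearest libraries were almost equal. For Cdc6 they were 72.9 and 80.6 against 92.7, 94.1 and 84.3, a mean difference of 13.6 points. E2f3 stood at 77.7 and 84.5 against 90.7, 87.7 and 89.1, and Pcna at 98.0 and 96.2 against 98.2, 99.4 and 99.3. In the other direction, Mcm3 stood at 90.2 and 95.5 against 82.8, 87.3 and 87.4, and Ccna2 at 98.3 and 98.5 against 96.9, 91.9 and 97.8. These groups did not overlap but several were separated by less than 1 point, at Pcna, Rrm2 and Ccna2. The members with the largest mean differences among the overlapping ones, E2f4 and Ccnb2, differed by -23.2 and -19.7 points (high minus normal glucose), and in both the libraries of 1 condition spanned more than that.

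**Figure D5:**
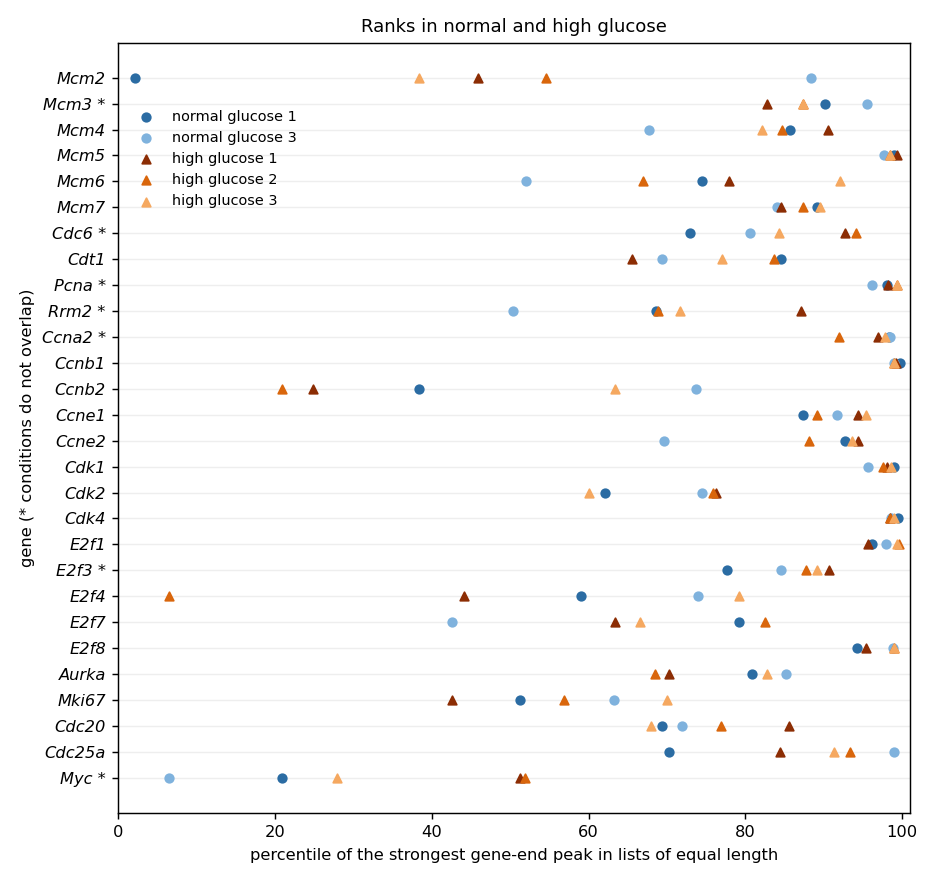
The percentile of the strongest gene-end peak in lists shortened to 22149 peaks is plotted for 28 members, with circles for the 2 normal-glucose and triangles for the 3 high-glucose libraries. An asterisk marks the 7 members whose conditions do not overlap. Myc is the member with the widest separation of means, and Mcm2 and E2f4 show the widest spread within a condition.

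Other genes of the same pathways, from lists chosen by function, were also mostly open. Of 33 further replication genes 22 (66.7%) were open at a gene end in all 5 libraries, of 24 further mitotic genes 20 (83.3%), and of 24 regulators 17 (70.8%). The share of all protein-coding genes was 35.7%. None of these further genes was open in every library of 1 condition and in none of the other. Few genes of any kind were, 0.699% for normal glucose and 0.0640% for high glucose. The 20 of 24 further mitotic genes stand beside 4 of the 8 mitotic members. The 22 of 33 further replication genes stand beside 10 of the 12 replication members. Neither difference was tested. Highest ranked were Chaf1b, a histone chaperone subunit of the replication fork, at 99.6 to 99.9, and Ccnf, which encodes cyclin F, at 99.0 to 99.9. Mad2l1 of the spindle checkpoint stood at 96.2 to 99.1, Cenpf of the kinetochore at 95.8 to 99.7, and Gins4 of the replicative helicase at 97.4 to 99.0.

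Regulators that bear on the members were mostly open. Rb1, which restrains E2F, stood between 70.7 and 78.1, and Tfdp1, the dimer partner of E2F factors, between 91.5 and 95.3. The DREAM subunits Lin9, Lin37, Lin52 and Lin54 were open in all 5 libraries at no less than 5.73, 45.5, 73.2 and 89.0, and so were Mybl2 (B-Myb) and Foxm1 at no less than 67.2 and 39.8. Trp53, which encodes p53, stood between 89.5 and 97.6. Among CDK inhibitors, Cdkn1b, Cdkn2c and Cdkn2d were open in all 5 libraries and Cdkn1c, Cdkn2a and Cdkn2b in none. Orc4, Rfc1, Lig1 and Cdkn1a had no gene-end peak but a peak within 1 kb of an annotated start in all 5 libraries, as Orc1 and Ccnd3 did.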

How the data were processed

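Deposited ATAC-seq peak lists of 6 libraries were used, each called per library as far as the files show, on mm10 per the submitters' processing notes. Those notes name, without roles, MACS2 2.1.0 (a peak caller), Bowtie 1.0.0 (an aligner), cutadapt 1.0, Picard 1.90, DiffBind 1.12.3 and SAMtools 0.1.19. For duplicates, mitochondrial reads and the transposase offset, the handling was not given in the sources used here, and unshifted reads would move a summit by a few bases. The deposited values per peak are the authors' score, fold enrichment ratio, −log10 p-value and −log10 q-value, whose lowest value was 1.3. The deposited lists hold no read counts, so depth and its error are unknown. Reads were 50 bp paired-end, per the labels.

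Nuclear peaks (chromosomes 1 to 19, X, Y) were overlapped, by at least 1 bp, with the 1 kb around each end of 21887 RefSeq protein-coding genes. Peaks of the 5 libraries with at least 1000 peaks were merged where they overlapped into 49048 regions. Strand, starts and sequence came from RefSeq promoter windows (32 of 40 members matched). The members and lists were chosen with earlier results of these data known. Values in every library were given for members open in some libraries only, for the 3 highest and the lowest of each group, for those whose conditions did not overlap and for those open only inside the gene. Scripts used pandas 2.3.3, numpy 2.4.6, matplotlib 3.10.9 and scipy 1.17.1 under Python 3.11.15, and the overlap code was tested on simulated data. Alternatives were other windows, thresholds, list lengths, ranking by fold, and leaving out each library.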

Additional observations from a re-analysis of the deposited data

How the results depend on the processing

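The count of members open in all 5 libraries was 29, against 35.7% of all genes. It was 24 at a −log10 q of at least 5 (27.9% of all genes) and 28 with lists of equal length (34.0%). Windows of 500 bp gave 26 (32.8%), windows of 2.5 kb 29 (39.9%) and the summit required inside the window 29 (35.3%). The count was 27 of 32 at annotated starts (38.6%), 32 anywhere in the gene (44.6%) and 29 to 31 with a library left out (35.8% to 37.6%). With all 6 libraries it was 0, because normal-glucose replicate 2 listed no member peak. That stricter threshold lost Mcm2, Ccnb2, E2f4, Plk1 and Myc. The count open in normal glucose only, 0, became 1 (E2f2) at that threshold, against 0.8% of all genes. It ranged from 0 to 1 with a library left out: 1 without normal-glucose replicate 1 (3.27% of all genes) or high-glucose replicate 2 (1.46%). The count open in high glucose only, 0, ranged from 0 to 2, with 2 without normal-glucose replicate 3 (1.65% of all genes). The count ranking higher in normal glucose, 2, was 1 at annotated starts (Mcm3). Ccna2 has no annotated start and could not be counted there. The count was 2 by fold enrichment or with windows of 2.5 kb, and ranged from 2 to 7 with a library left out. Without normal-glucose replicate 1 it was 7 of 31 (26.6% of all genes) and without normal-glucose replicate 3 it was 6 of 28 (23.0%). Without high-glucose replicate 3 it was 6 of 28 (15.0%). The count ranking higher in high glucose, 5, was also 5 at annotated starts, but with 4 of the same genes. Ccnd3 stood there in place of Myc, which has no annotated start. The count was 4 by fold enrichment (without Rrm2) and 4 with windows of 2.5 kb (without Myc), and ranged from 7 to 13 with a library left out. With annotated starts, fold enrichment and 2.5 kb windows, the shares of all genes were 8.65% to 10.0% for normal and 14.5% to 15.5% for high glucose. The count ranking higher in high glucose was 13 of 31 without normal-glucose replicate 1 (30.8% of all genes). It was 9 of 28 without normal-glucose replicate 3 (33.5%) and 8 of 28 without high-glucose replicate 2 (20.3%). Fewer libraries make these patterns easier to meet, and the shares of all genes rose with them, to 26.6% and 30.8% without normal-glucose replicate 1. No paired analysis was made, since the labels do not say that shared numbers pair the libraries, and no result comes from a test. The lists hold no counts, so an absent peak cannot be separated from low depth.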
